A study of Saccharomyces cerevisiae with 6 samples.

Results

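A group of 7 yeast ribosomal protein genes, from families that regulate the splicing of their own or a partner copy's transcript, was examined in cells carrying a retinitis pigmentosa allele of the splicing factor Prp8. They are RPL30 (YGL030W), RPS14A (YCR031C), RPS14B (YJL191W), RPS9A (YPL081W), RPS9B (YBR189W), RPL22A (YLR061W) and RPL22B (YFL034C-A). They were chosen by name, as families in which the protein is known to repress splicing, and each has 1 row in the deposited table, so they make up 7 of its 239 genes and 7 of its 253 rows. All 63 of their values were present. The mutant strain made only Prp8 with the S2197F change and the control strain only wild-type Prp8. In both strains PRP8 was deleted from the chromosome and supplied on a centromeric plasmid marked with HIS. Cells were harvested at an OD600 of 0.7 after growth at 37 °C, and 3 independent pairs of cultures were each compared on 2 arrays with the dyes exchanged. The 2 arrays of a pair count as 1 biological replicate, so n = 3 for every value below. Wild-type RNA was hybridised together with mutant RNA, so the values are ratios from the start.

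Prp8 lies at the catalytic core of the spliceosome. Budding yeast has few introns, and many of these are in ribosomal protein genes. In the regulated genes, a ribosomal protein in excess binds its own pre-mRNA, or that of its partner copy, and blocks splicing, so that unspliced or poorly spliced RNA accumulates and less protein is made. In yeast L30 acts on RPL30, S14 on RPS14B, S9 mainly on RPS9A and L22 on RPL22B. RPS14A, RPS9B and RPL22A are the other copies of these families and are not known as the main targets of such repression. The series asks how Prp8 changes that cause blindness in people affect passage from the first to the second chemical step of splicing.

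Each row has an exon feature, an intron feature and an exon junction feature, which the labels call total, pre- and mature mRNA. Values are log ratios of mutant over wild type, read as log2 (the base is not stated), so that 0 means equal signal and 1 means 2-fold more in the mutant. The direction was taken from the column names. The single-array values of the dye-exchanged arrays, as deposited, correlated at 0.031, 0.19 and 0.30 within replicates 1, 2 and 3. Whether they had been turned to 1 direction is not stated, so they were no check of it. Between arrays of different replicates the correlation ran from -0.020 to 0.33 in the same dye orientation and from 0.11 to 0.24 in the opposite one. An intron feature cannot tell unspliced RNA from splicing intermediates and excised introns. RNA came from whole cultures, so a change in every cell and a change in some of the cells cannot be told apart. Means are given ± the SE from limma, a linear model that shares the variance among features. A value "passed" when its adjusted p (limma, Benjamini-Hochberg over all features of the class) was under 0.05. Of the 6 arrays, 1 array of replicate 2 lacked values for 28.5% of its spots, against 0.933% to 4.87% on the others.

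Intron signal of 3 of the 7 genes was higher in S2197F: RPS14B rose 1.96-fold, RPS9A 1.65-fold and RPS9B 1.58-fold. The other 4, RPL22B, RPL30, RPL22A and RPS14A, did not pass, and no intron of the 7 fell. Of all rows, 59 of 251 intron features passed (23.5%), all higher, and among the other ribosomal protein genes 41 of 95 did. The median intron ratio of the 7 was 0.50, beside 0.54 for the other ribosomal protein genes and 0.27 for all introns. In 6 of the 7 genes the intron ratio was above 0 in all 3 replicates, a pattern seen in 51.4% of all introns measured throughout and in 77 of 95 of the other ribosomal protein introns.

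RPL30 encodes a large subunit protein and is the single-copy member. Its intron ratio was 0.042, 0.28 and 0.99 in replicates 1 to 3. The mean of 0.44 ± 0.21 did not pass (adjusted p = 0.17), and it was 0.16 without replicate 3. All 3 values lay above 0, but only that of replicate 3 was far from it.

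RPS14A and RPS14B encode copies of the small subunit protein S14, and only the RPS14B transcript is known to be repressed by it. The RPS14B intron ratio was 0.67, 0.47 and 1.76. Its mean of 0.97 ± 0.25 passed (adjusted p = 0.037), and it ranked 11 of 251 introns from the highest and 5 of 102 among those of ribosomal protein genes. The RPS14A intron ratio was -0.61, 0.38 and 0.41. Here the replicates fell on both sides of 0, and the mean was 0.057 ± 0.23 (adjusted p = 0.89). That placed it 100 of 102 ribosomal protein introns. Its sign depended on the replicates kept, since the mean was 0.39 without replicate 1, -0.10 without replicate 2 and -0.12 without replicate 3.

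RPS9A and RPS9B encode S9, another small subunit protein. The RPS9A intron ratio was 1.01, 0.22 and 0.94, a mean of 0.72 ± 0.20 (adjusted p = 0.039). The RPS9B intron ratio was 0.71, 0.33 and 0.94, a mean of 0.66 ± 0.18 (adjusted p = 0.039). In both copies replicate 2 had the lowest value and all 3 values were above 0.

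RPL22A and RPL22B encode L22 of the large subunit. The RPL22B intron ratio was 0.34, 0.35 and 0.82, and its mean of 0.50 ± 0.17 narrowly missed the threshold (adjusted p = 0.067). The RPL22A intron ratio was 0.46, 0.43 and 0.18, a mean of 0.36 ± 0.16 (adjusted p = 0.15). Both passed once the exon median of a replicate was subtracted from its values, with 0.64 (adjusted p = 0.027) for RPL22B and 0.49 (adjusted p = 0.038) for RPL22A. Those medians were below 0 (-0.15, -0.068 and -0.19), so the subtraction raised every ratio. Over the table it took the introns that passed from 59 to 91, so the gain was not limited to RPL22.

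The 3 intron calls were not stable to the choice of replicates. RPS14B passed without replicate 1 (adjusted p = 0.000149) but not without replicate 2 (adjusted p = 0.15) or replicate 3 (adjusted p = 0.075). RPS9A and RPS9B missed the threshold whichever replicate was left out, with adjusted p from 0.055 to 0.13 for RPS9A and from 0.058 to 0.13 for RPS9B. The ratios themselves stayed above 0 throughout. They ran from 0.57 to 1.22 for RPS14B, from 0.58 to 0.98 for RPS9A and from 0.52 to 0.82 for RPS9B, and all 3 were highest without replicate 2. Without replicate 2 only 2 introns of the whole table passed, so that loss was not limited to the 7 genes.

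**Figure D1:**
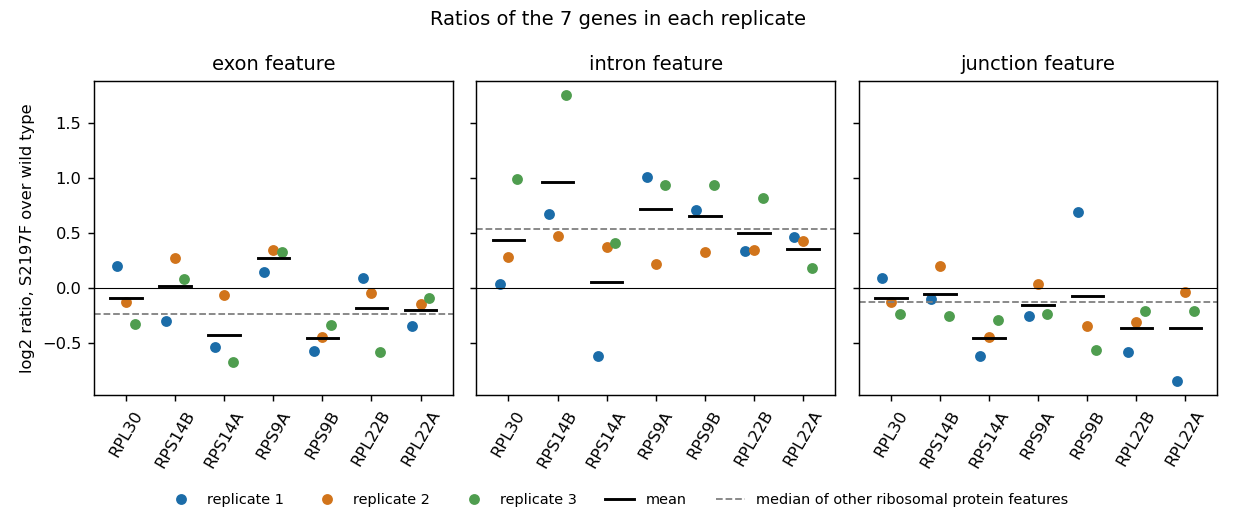
Log2 ratio of S2197F over wild type (vertical axis) for the exon, intron and junction features of the 7 genes, with a point for each replicate, a bar for the mean and a dashed line at the median of the other ribosomal protein features. Introns lie mostly above 0, with RPS14B at a mean of 0.97 and RPS14A at 0.057.

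In the order of mean intron ratios, RPS14B stood first, followed by RPS9A, RPS9B, RPL22B, RPL30, RPL22A and RPS14A. The replicate values of every gene overlapped those of the next in this order, so no step between neighbours exceeded the replicate spread. The spread itself was wide for some genes. The SD over replicates was 0.69 for RPS14B, which ranked 12 of 245 introns from the largest, 0.58 for RPS14A and 0.49 for RPL30, beside a median SD of 0.27 over introns. RPL22A varied least, with an SD of 0.15.

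The replicates also differed in where the 7 introns stood among ribosomal protein genes. In replicate 3 the median of the 7 was 0.94 and that of the other ribosomal protein introns 0.43, and 5 of the 7 lay above the upper quartile of the others. In replicate 1 the 2 medians were 0.46 and 0.58, with 1 gene above that quartile, and in replicate 2 they were 0.35 and 0.43, with 0 above it. The high position in replicate 3 was thus not seen in the other replicates.

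**Figure D2:**
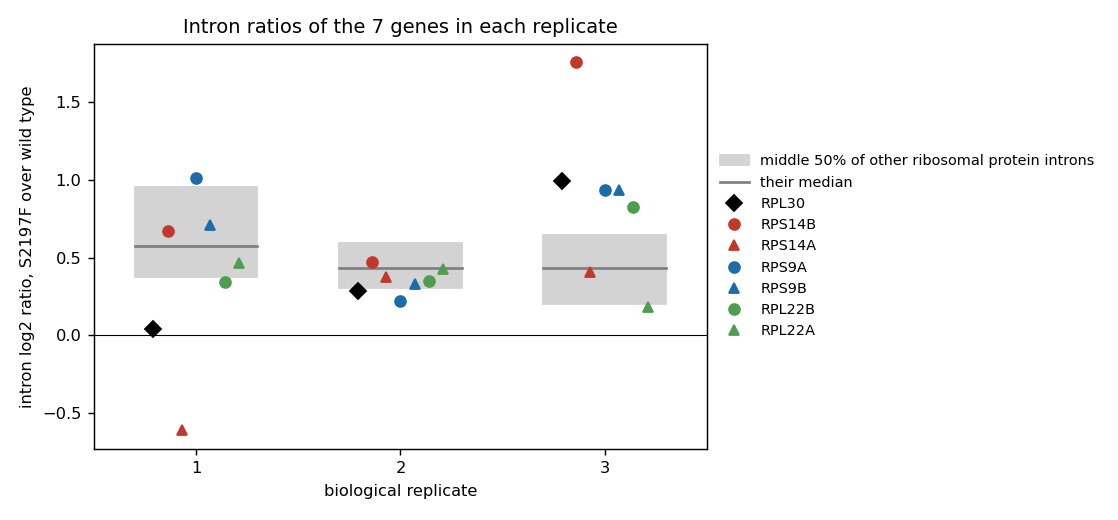
Intron log2 ratio (vertical axis) of each gene in the 3 biological replicates (horizontal axis), over a grey box between the quartiles of the other ribosomal protein introns with their median. In replicate 3 the genes RPS14B, RPL30, RPS9A, RPS9B and RPL22B lie above the box.

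Spliced transcript, read by the junction feature, did not pass in any of the 7 genes. Of 7 junction features 0 passed by limma, with 1 lower at an unadjusted p under 0.05, and of all rows 1 of 248 passed (0.403%). At that unadjusted p, 29 of 248 junctions (11.7%) and 16 of 95 of the other ribosomal protein junctions were lower. All 7 means were below 0, between -0.45 and -0.049, with a median of -0.15, beside -0.13 for other ribosomal protein genes and -0.10 for all junctions. RPS14A, RPL22A and RPL22B were below 0 in all 3 replicates, as were 29.7% of all junctions.

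The RPS14A junction ratio was -0.62, -0.45 and -0.29, with a mean of -0.45 ± 0.16 (adjusted p = 0.27), while that of RPS14B was -0.098, 0.20 and -0.25 (-0.049 ± 0.17, adjusted p = 0.91). RPL22B had -0.58, -0.31 and -0.21 (-0.36 ± 0.16, adjusted p = 0.38). RPL22A had -0.84, -0.031 and -0.21 (-0.36 ± 0.20, adjusted p = 0.47), a mean set largely by replicate 1. RPL30 stayed close to 0 at 0.089, -0.13 and -0.24, a mean of -0.092 ± 0.16. RPS9A had -0.25, 0.042 and -0.24, a mean of -0.15 ± 0.16.

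The RPS9B junction ratio was 0.70, -0.35 and -0.56, so replicate 1 ran against the others. Its SD of 0.67 ranked 20 of 219 junctions from the largest. The mean of -0.071 ± 0.25 was -0.45 without replicate 1.

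Total transcript, read by the exon feature, differed in sign between the copies of RPS9. None of the 7 exon features passed by limma (0 of 7, with 2 lower at an unadjusted p under 0.05), and none of 234 passed over the table (0%). At that unadjusted p, 26 of 234 exons (11.1%) and 19 of 92 of the other ribosomal protein exons were lower. The RPS9A exon ratio was 0.15, 0.35 and 0.33, a mean of 0.28 ± 0.16 (adjusted p = 0.45). The RPS9B exon ratio was -0.57, -0.45 and -0.34, a mean of -0.45 ± 0.16 (adjusted p = 0.34). All 3 values of RPS9A were above 0 and all 3 of RPS9B below it. RPS9A ranked 2 of 99 ribosomal protein exons from the highest and RPS9B 88.

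The RPS14A exon ratio was -0.54, -0.062 and -0.67 (-0.42 ± 0.18, adjusted p = 0.38). RPS14B had -0.30, 0.28 and 0.087, with a mean of 0.020 ± 0.17. RPL22A was lower in each replicate at -0.35, -0.15 and -0.090 (-0.19 ± 0.16, adjusted p = 0.57). RPL22B had 0.092, -0.041 and -0.58, and RPL30 0.20, -0.13 and -0.33, so both changed sign between replicates. RPS14A, RPS9B and RPL22A were the 3 genes below 0 in all 3 replicates (42.9% of the 7). The same held for 33.3% of all exons and for 45 of 92 (48.9%) of the other ribosomal protein exons. These 3 genes are the copies not known as main targets of repression. The exon means of RPL22A and RPL22B were close, at -0.19 and -0.18.

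The intron ratio was next set against the junction and the exon ratio of the same gene. This removes the centring of an array and any change that both features share equally. A change in the exon or junction ratio alone still moves the difference. Intron minus junction rose for RPS14B, RPS9A and RPL22B, and intron minus exon for RPS9B and RPS14B. RPS14B therefore passed in both, and RPL30, RPS14A and RPL22A in neither. Of all rows, 53 of 247 rows (21.5%) passed for intron minus junction and 72 of 246 (29.3%) for intron minus exon. Among the other ribosomal protein rows, 31 of 94 passed for intron minus junction and 56 of 94 for intron minus exon. The same intron values enter these tests and the ones above, so they are no separate support.

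For intron minus junction, RPS14B had 0.77, 0.27 and 2.00 (1.02 ± 0.29, adjusted p = 0.0083). RPS9A had 1.27, 0.18 and 1.17 (0.87 ± 0.29, adjusted p = 0.022). RPL22B had 0.92, 0.66 and 1.03 (0.87 ± 0.28, adjusted p = 0.020), with a replicate SD of 0.19, the smallest of the 7 genes. Its intron and its junction alone had missed the threshold.

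RPS9B, with 0.015, 0.68 and 1.50 (0.73 ± 0.29), and RPL22A, with 1.31, 0.46 and 0.39 (0.72 ± 0.28), each had an adjusted p of 0.053. RPL30 had -0.047, 0.41 and 1.23 (0.53 ± 0.29, adjusted p = 0.18), and RPS14A 0.0026, 0.82 and 0.70 (0.51 ± 0.28, adjusted p = 0.19). RPL30 was the 1 gene of the 7 that was not above 0 in all 3 replicates, a pattern found in 57.5% of all rows and in 63 of 86 of the other ribosomal protein rows. The variances of this fit were drawn to a nearly common value (57.2 prior degrees of freedom), so its SEs hardly follow the replicate spread of a single gene. RPS14B passed without replicate 1 or 2, RPS9A only without replicate 2 and RPL22B in no such fit (adjusted p from 0.051 to 0.15). Without replicate 3 the count was 0, and RPS9B passed without replicate 1 (adjusted p = 0.019). When only rows with all replicates were tested, RPS9B and RPL22A passed too, giving 5 calls. The share of all rows that passed in that fit is not given here.

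For intron minus exon, RPS9B had 1.28, 0.78 and 1.27 (1.11 ± 0.23, adjusted p = 0.0022), ranking 20 of 246 rows. RPS14B had 0.98, 0.20 and 1.67 (0.95 ± 0.27, adjusted p = 0.013). RPL22B had 0.25, 0.39 and 1.41 (0.68 ± 0.26, adjusted p = 0.055), and RPL22A 0.81, 0.57 and 0.27 (0.55 ± 0.23, adjusted p = 0.079). These 4 were above 0 in all 3 replicates, as were 54.2% of all rows and 81 of 94 of the other ribosomal protein rows. Of those 94 rows 56 passed, beside 2 of the 7.

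RPL30, RPS14A and RPS9A each had 1 replicate below 0, with means of 0.52 ± 0.27, 0.48 ± 0.25 and 0.45 ± 0.25. RPS9A, whose intron rose, thus did not pass here, and its exon ratio was positive as well. Without replicate 1 neither call passed (0 calls), although the differences of 0.93 for RPS14B and 1.03 for RPS9B were close to those from all replicates. Without replicate 3 only RPS9B passed, and RPS14B was at 0.59.

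**Figure D3:**
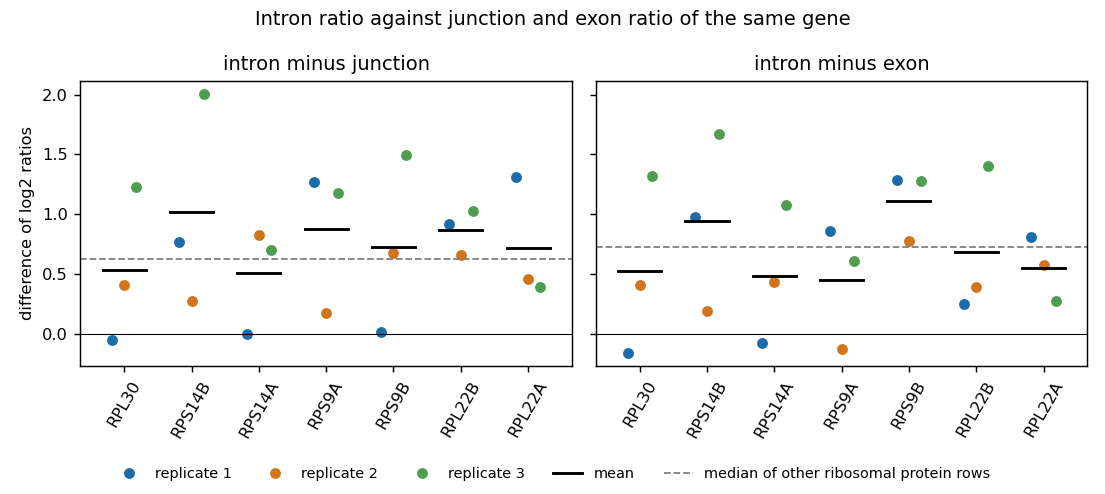
Intron minus junction and intron minus exon differences of the log2 ratios (vertical axis) for the 7 genes, with a point per replicate, a bar for the mean and a dashed line at the median of the other ribosomal protein rows. RPL22B has the tightest intron minus junction values, from 0.66 to 1.03, and RPS14B spreads from 0.27 to 2.00.

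Junction minus exon compares spliced with total transcript. None of the 7 passed by limma (0 of 7, and 0% of 244 rows in the table). At an unadjusted p under 0.05 there were 0 of the 7 and 11 of the 244 (4.51%). RPS9A was below 0 in every replicate at -0.41, -0.31 and -0.57 (-0.43 ± 0.20, adjusted p = 0.61), as were 15.7% of all rows. RPS9B had the highest mean, 0.38 ± 0.30, made by replicate 1 at 1.27 with 0.10 and -0.22 in the others.

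Copy was then set against copy within each replicate, as the ratio of copy B minus that of copy A, for 44 ribosomal protein pairs with 1 row per copy. None of the 3 families passed in any class by limma, and no pair of the table did (0% in each class). At an unadjusted p under 0.05 the exon of RPS9 and the intron of RPS14 were 2 of 9 family values. Among all pairs 2 of 44 exon (4.55%), 5 of 43 intron (11.6%) and 3 of 43 junction differences (6.98%) were under it. No pair had identical values for its copies in any class. How far a probe for 1 copy also binds RNA of the other was not tested.

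For RPS9 the copies differed in exon ratio by -0.72, -0.80 and -0.67, with the ratio of RPS9B lower each time. The mean of -0.73 ± 0.19 (95% interval -1.15 to -0.30, adjusted p = 0.18) was the largest in size of 44 pairs, and its replicate SD was 0.065. The intron ratios of these copies differed by -0.30, 0.11 and -0.00012 (-0.065 ± 0.19, interval -0.51 to 0.38). Their junction ratios differed by 0.95, -0.39 and -0.32 (0.079 ± 0.28). RPS9A minus RPS9B for intron minus exon was -0.42, -0.90 and -0.67, below 0 in each replicate, and was not tested.

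For RPS14 the intron ratio of copy B exceeded that of copy A by 1.29, 0.097 and 1.35. The mean of 0.91 ± 0.27 (95% interval 0.28 to 1.54, adjusted p = 0.14) ranked 2 of 43 pairs in size. It passed when introns were fitted apart from exons and junctions (adjusted p = 0.0080) and without replicate 2 (adjusted p = 0.0045). It did not pass without replicate 1 (adjusted p = 0.38) or replicate 3 (adjusted p = 0.53). How many of the 43 pairs passed in these alternative fits is not given here, so the calls cannot be read as particular to RPS14. In the main limma fit other pairs had a smaller unadjusted p (0.0056 and 0.0061, against 0.0099 for RPS14). Exon ratios differed by 0.24, 0.34 and 0.76 (0.44 ± 0.20, adjusted p = 0.58) and junction ratios by 0.52, 0.65 and 0.044 (0.40 ± 0.21, adjusted p = 0.46). The ratio of copy B was thus higher in all 3 features and all 3 replicates. Intron minus junction differed by 0.77, -0.55 and 1.30 (0.51 ± 0.41, adjusted p = 0.73), with replicate 2 opposed to the others. The fit of this difference gave all pairs a common variance. Its SE and p therefore do not follow the replicate spread of RPS14, an SD of 0.95.

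For RPL22 the copies differed by 0.44, 0.11 and -0.49 in exons (0.017 ± 0.23, interval -0.51 to 0.54). The differences were -0.12, -0.077 and 0.64 in introns (0.15 ± 0.22, interval -0.36 to 0.65) and 0.27, -0.28 and 0.00062 in junctions (-0.0029 ± 0.20, interval -0.46 to 0.46). Each changed sign between replicates, and the intervals leave room for differences of up to 0.65 in size.

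Read by role, the intron ratio of the copy known to be repressed was compared with that of the other copy. It stood higher in 2 of 3 families in replicate 1, in 1 of 3 in replicate 2 and in 3 of 3 in replicate 3, with no tolerance for ties. In replicate 3 the RPS9 copies differed by 0.00012 and were in effect tied. The mean excess was 0.91 for RPS14B over RPS14A, 0.065 for RPS9A over RPS9B and 0.15 for RPL22B over RPL22A. Only the first was above 0 in all 3 replicates.

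**Figure D4:**
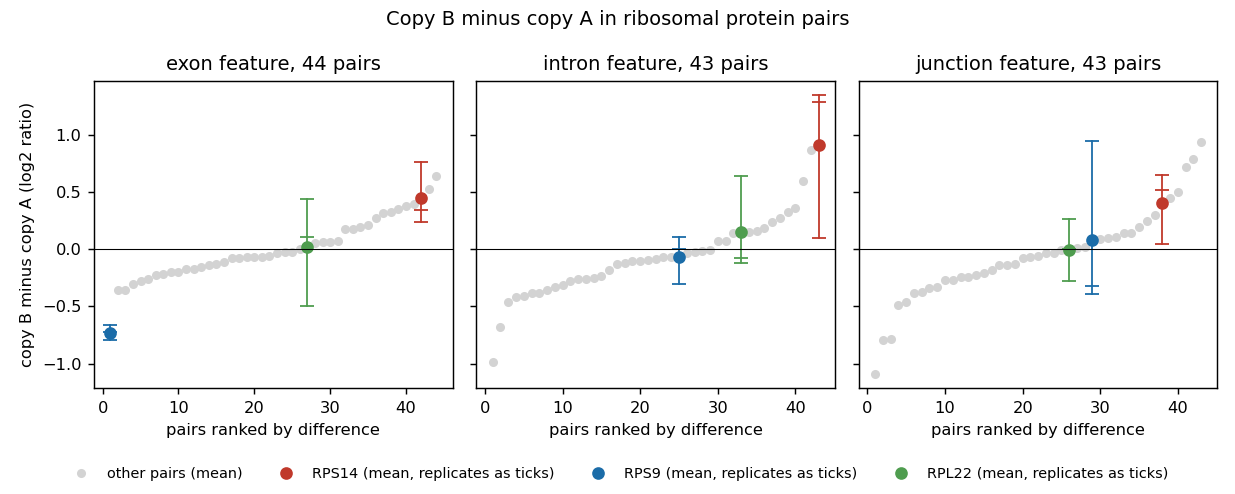
Copy B minus copy A of the log2 ratio (vertical axis) for ribosomal protein pairs ranked by their mean difference (horizontal axis), for exon, intron and junction features, with ticks for the replicates of the 3 families. RPS9 is the lowest exon pair at -0.73 and RPS14 the highest intron pair at 0.91.

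The 7 genes were also tested against the other ribosomal protein genes by subtracting the median of those genes in each replicate and class. None of the 21 member features passed by limma (0 calls), while of all rows 1.99% of introns, 0% of exons and 0% of junctions did. At an unadjusted p under 0.05 there was 1 of the 21, beside 124 of 733 features (16.9%). Those 733 include genes outside the ribosomal protein list. The median intron ratio of such genes was 0.15, against the 0.54 of the other ribosomal protein genes. The share is therefore not that among ribosomal protein features. The largest differences were those of the RPS9A exon (0.52 ± 0.16, 95% interval 0.15 to 0.90, adjusted p = 0.30), the RPS14B intron (0.49 ± 0.26, interval -0.095 to 1.07, adjusted p = 0.24) and the RPS14A intron (-0.42 ± 0.24, interval -0.98 to 0.13, adjusted p = 0.27). None of these 21 ratios was thus shown to differ from what was usual for ribosomal protein genes. The differences between features were not tested in this way. The error of the subtracted median is not in these intervals.

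Likeness was measured as the root mean square difference over the 9 values of a row, among 203 other rows with all values. It uses the same 3 replicates for every gene and is a description. RPL30 was nearest to BOS1, a membrane fusion protein of early secretory traffic (0.223), and RPS17A, a small subunit protein (0.223). RPS14A was nearest to ERV1, a mitochondrial sulfhydryl oxidase (0.224), and RPL24B of the large subunit (0.275). RPS14B was nearest to LSM7, of a ring complex that binds U6 RNA (0.282), and ASC1, a small subunit protein (0.315).

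RPS9A was nearest to NOG2, a GTPase of large subunit assembly (0.218), and YNL050C (0.271). RPS9B was nearest to RPL13B (0.259) and to RPL40A, which encodes a ubiquitin fused to a large subunit protein (0.289). RPL22A was nearest to COX4, a cytochrome oxidase subunit (0.170), and NYV1 of vacuole fusion (0.206), and RPL22B to RPS17A (0.234) and RPL24B (0.241). By the same measure the copies stood 0.338 apart for RPL22, 0.564 for RPS9 and 0.739 for RPS14. A nearest row is the smallest of 203 differences, so the copies were set beside the median difference. That median was 0.447 for RPL22A and 0.452 for RPL22B, so these copies were closer than the median row. It was 0.550 for RPS9A and 0.577 for RPS9B, with the distance between the copies in between. For RPS14A and RPS14B it was 0.544 and 0.629, so only these copies were farther apart than the median row.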

How the data were processed

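The values tested are log2 ratios of mutant over wild type from the authors' deposited table. They combine an array and its dye exchange into 1 value per replicate, per the labels. Base 2 was assumed, because ratios in the authors' deposited single-array table end at 16.61, the log2 value of a round ratio. How images were read, filtered, background-corrected and normalized is not given in the sources used. Spots of the single-array table carry no gene names, so it served only for missing spots and correlations between arrays. The authors' table of means stayed out.

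The ratios were tested against 0, two-sided, in limma (version 3.58.1, under R 4.3.3) with empirical Bayes variances, wherever 2 or more replicates had a value. Exons, introns and junctions shared 1 fit, after leaving out 14 exon rows and 1 junction row that repeat another row's values. Differences within a row, copy B minus copy A and values minus the median of other ribosomal protein genes were fitted likewise. The differences within a row kept the repeated rows, so a repeated exon or junction value entered them more than once. Benjamini-Hochberg adjustment ran over all features or pairs of a class. With 3 values, the smallest p of an exact sign-flip test is 0.25. The number of arrays limits the precision. The code was tested on simulated data.

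The 7 genes and the lists were chosen with earlier results of these data known. By rule the text names these genes and, for each, the 2 most similar other rows. Ribosomal protein genes are rows named RPL, RPS or RPP with a number. All 7 locus names matched RefSeq. Alternatives were other centring, leaving out a replicate, robust or unmoderated variances, separate fits and complete rows only. Probe and gene sequences were not used here.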

Additional observations from a re-analysis of the deposited data

How the results depend on the processing

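Mutant and wild type share each array, so the ratio already pairs them and no further paired analysis was made. The robust variance added 1 call among the 7 genes (RPL22A intron minus junction, adjusted p = 0.048), for 4 in that class. With unmoderated variances 3 introns of the table passed in place of 59, and 0 of the 7 genes passed in intron ratio, intron minus junction or intron minus exon. Centring on exons gave 91 introns, 5 of the 7 genes among them, and turned the RPL30 exon (0.052) and the junctions of RPL30 (0.044), RPS14B (0.087) and RPS9B (0.065) above 0. Complete rows gave 5 genes for intron minus junction. The share of all rows called for that difference in the robust and complete-row fits is not given here. Separate fits gave 1 pair of the 3 families (RPS14) for introns. The count over all ribosomal protein pairs in those fits is not given here. With all rows in place of ribosomal protein genes as the reference no call changed, but of the 3 differences recomputed the RPS14A intron moved from -0.42 to -0.24, the RPS14B intron from 0.49 to 0.67 and the RPS9A exon from 0.52 to 0.41.

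Leaving out a replicate gave 2 to 47 introns in the table. Of the 7 genes, 0 to 1 passed for introns, 0 to 2 for intron minus junction and 0 to 2 for intron minus exon. Of the pairs RPS14, RPS9 and RPL22, 0 to 1 passed for introns. The values whose sign changed had not passed with all replicates. Exon means ran from -0.23 to 0.036 for RPL30, -0.11 to 0.18 for RPS14B and -0.31 to 0.026 for RPL22B. The RPS14A intron ran from -0.12 to 0.39, and junctions from -0.17 to 0.050 for RPS14B and -0.45 to 0.17 for RPS9B. RPS9B junction minus exon, 0.38 with all replicates, ran from -0.061 to 0.68. Copy B minus copy A ran from -0.19 to 0.27, -0.10 to 0.28 and -0.14 to 0.13 for the exons, introns and junctions of RPL22, and from -0.15 to 0.054 and -0.36 to 0.31 for the introns and junctions of RPS9. The cause of these changes was not tested.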
